A study of Homo sapiens with 4 samples.

Results

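Break sites in telomere repeats were the listed double-strand break (DSB) positions whose 60-nt sequence, read in capitals, held at least 2 tandem copies of the human telomere hexamer, TTAGGG on one strand or CCCTAA on the other. The rule used the sequence alone. It found 91 of the 1223 sites listed over 4 libraries, 18 and 31 in non-target replicates 1 and 2 and 18 and 24 in VEGFA site 2 replicates 1 and 2. These 91 sites lay at 86 distinct positions of hg38, which merged within 30 nt into 42 of 689 loci.

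All 4 libraries were made by TTISS-seq from wild-type U2OS cells, an osteosarcoma line that the labels trace to a sarcoma of the tibia. The study used the assay to map the off-target landscape of SpCas9 with the VEGFA site 2 sgRNA. There were 2 VEGFA site 2 libraries, labelled as digested with that sgRNA, and 2 non-target libraries, labelled undigested, for which no guide was named. Total listed counts were 29017 and 60660 (non-target replicates 1 and 2) and 2855164 and 3182992 (VEGFA site 2 replicates 1 and 2), and nothing in the labels showed whether replicates came from separate cultures, so p-values measure the spread between these libraries, which may be technical.

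In TTISS-seq, a short double-stranded tag is joined into DSBs in living cells, and DNA next to the tag is recovered by Tn5 fragmentation and sequencing. Chromosome ends are capped by arrays of the telomere hexamer with the G-rich strand running 5′ to 3′ towards the tip, bound by the shelterin complex, which keeps the end from being treated as a DSB. Just inside the terminal array lie subtelomeric stretches of degenerate and variant hexamers, and shorter arrays also stand at interstitial places. U2OS has no telomerase activity and maintains its telomeres by alternative lengthening of telomeres (ALT), a recombination-based route known for telomeres of very uneven length and for variant repeats within them.

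Each locus is named below by its chromosome arm and a running number along that arm. The sequences of the 2 loci with the highest mean share of counts in the non-target libraries are shown first, since the counts turn on them, and that of 20q-1, the locus farthest inside a chromosome, is shown beside them. They are read 5′ to 3′ on the plus strand of hg38, the break lies in the middle of each, and capitals mark runs of at least 2 exact tandem hexamers.
10q-2, chr10:133787351-133787410, non-target replicate 1: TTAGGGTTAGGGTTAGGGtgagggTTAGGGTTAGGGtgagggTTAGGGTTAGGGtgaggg
4q-1, chr4:190122451-190122510, non-target replicate 2: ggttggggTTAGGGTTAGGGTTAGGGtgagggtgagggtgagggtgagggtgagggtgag
20q-1, chr20:45313350-45313409, non-target replicate 1: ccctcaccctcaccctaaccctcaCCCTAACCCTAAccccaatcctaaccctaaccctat

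The G-rich hexamer stood on the plus strand in 10q-2 and 4q-1 and the C-rich one in 20q-1. In 10q-2, exact hexamers were interrupted by the variant TGAGGG, and in 4q-1 a block of TGAGGG followed 3 exact copies. The sequence of 20q-1, within the RBPJL gene, had 4 exact copies among variant and other units, of which only 1 pair stood in tandem. The 60 nt of Xq/Yq-1 were listed on chromosome Y and stood in identical form at the end of the long arm of chromosome X. The matching position there was 156030609. The sequence alone does not tell the 2 chromosomes apart, so the listing on Y does not show that the breaks lay on Y.

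None of the 91 sites matched the guide. A match was sought with up to 7 mismatches, with NGG and then with any other triplet as protospacer-adjacent motif (PAM), and with a 1-nt bulge and up to 5 mismatches. In contrast, 808 sites had a guide match beside NGG, and 324 had neither an NGG match nor telomere repeats. Below, guide-matched and neither refer to the NGG match alone. Sites with a match of any kind numbered 58 and 92 in the non-target libraries and 403 and 418 in the VEGFA site 2 libraries. Those beside NGG numbered 53 and 87, and 327 and 341. Many VEGFA site 2 sites with neither thus had a match beside another PAM or with a bulge. As a check of where the break lies in a listed sequence, 66 of the 67 sites with at most 3 mismatches to the guide were within 1 nt of the expected cleavage position.

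The number of telomere-repeat sites did not separate the groups. The mean was 24.5 ± 9.19 (SD, n = 2) in the non-target libraries and 21 ± 4.24 (SD, n = 2) in the VEGFA site 2 libraries, with an exact two-sided permutation p of 1, where 2 libraries against 2 allow no p below 0.333. The sites made up 15.5% and 19% of all sites listed in non-target replicates 1 and 2, and 3.92% and 4.95% in VEGFA site 2 replicates 1 and 2, whose lists held 327 and 341 guide-matched sites.

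The summed count at telomere-repeat sites was 2238 in non-target replicate 1, 10666 in non-target replicate 2, 2206 in VEGFA site 2 replicate 1 and 2686 in VEGFA site 2 replicate 2. Non-target replicate 2 stood apart, and the other 3 libraries lay close together, although the total listed counts of the 2 groups differed far more. The count in non-target replicate 2 was 4.77 times that in replicate 1, while its total listed count was 2.09 times as high, so the replicates differed by more than their total listed counts did. The exact two-sided permutation p for the group difference was 0.667. Counts per site ran from 2 to 657 with a median of 34 in non-target replicate 1, from 1 to 1438 with a median of 160 in replicate 2, from 2 to 790 with a median of 68 in VEGFA site 2 replicate 1 and from 2 to 528 with a median of 50.5 in replicate 2. The 3 highest sites held 66%, 38.1%, 56.8% and 51.3% of the telomere-repeat count in the same order, so a few positions carried much of it in each library.

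The share of guide-independent counts at telomere repeats was 8.27% in non-target replicate 1 (95% Wilson interval 7.94 to 8.6%), 18.2% in replicate 2 (17.9 to 18.5%), 2.38% in VEGFA site 2 replicate 1 (2.28 to 2.47%) and 2.33% in replicate 2 (2.25 to 2.42%), when counts without a match beside NGG were taken as guide-independent. On this scale the groups did not overlap, with a mean of 13.2 ± 7.01% (SD, n = 2) against 2.35 ± 0.0314% (SD, n = 2). The order turned when counts at sites with a match beside another PAM or with a bulge were left out too. The shares were then 8.46% (8.13 to 8.8%) and 18.2% (17.9 to 18.5%) in the non-target libraries and 26.2% (25.3 to 27.2%) and 22.1% (21.4 to 22.8%) in the VEGFA site 2 libraries. That step took the guide-independent count of the VEGFA site 2 libraries from 92884 and 115248 to 8413 and 12159, and that of the non-target libraries only from 27072 and 58661 to 26463 and 58562. Either difference reached the smallest exact two-sided permutation p that the design allows, 0.333, so no direction can be given for the share. The intervals cover counting error only and treat every count as independent. They are too narrow if the counts include PCR copies, which the sources used here do not state.

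Most telomere-repeat loci lay at chromosome ends. Of the 42 loci, 36 were within 100 kb of the outermost assembled base of hg38, 28 within 20 kb and 27 within 1 kb, and the median distance was 364 nt. The nearest site, in 10q-2, was 28 nt from that base. In the 4 libraries, in the order above, 15, 29, 16 and 21 sites were within 100 kb of an end, with 92.7%, 98%, 94.2% and 98.8% of the telomere-repeat count. The comparison was with sites that had neither an NGG match nor telomere repeats. Of these, 1 of 45, 4 of 45, 1 of 114 and 3 of 120 in the same order were within 100 kb of an end. In each library, 1 of these near-end sites lay at the tip of 9p, with 8 exact or variant telomere units.

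The near-end loci lay on 16 chromosome arms, with Xq and Yq counted as 1. Not all were at the tip itself. The 4 loci of 4q were 81609 to 82058 nt from the last assembled base, and DUX4 was the nearest protein-coding gene, 50828 to 51277 nt away. The loci 20q-2 and 20q-3 were 47362 and 47126 nt from the end, within the PCMTD2 gene but outside its canonical transcript. The loci 3q-1 and 3q-2 were 62128 and 61376 nt from the end, in an intron of a long non-coding RNA gene. Altogether 35 loci were intergenic and 7 were within an annotated gene of GENCODE release 44, 5 of these in a protein-coding gene. The median distance to the nearest protein-coding gene was 55094 nt.

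By the limit of 100 kb from the outermost assembled base, 6 loci were interstitial. Among them, 1p-3, 1p-4 and 1p-5 lay 170798 to 170922 nt from the end of 1p in a single array of 58 exact hexamers, each in a different library, with counts of 119 in VEGFA site 2 replicate 1, 148 in non-target replicate 1 and 22 in VEGFA site 2 replicate 2. The 2 loci of 11p, 115745 and 115888 nt from the end, shared an array of 81 exact hexamers in a long non-coding RNA gene that overlaps BET1L. Of these, 11p-1 had counts of 5, 33, 8 and 7 in the 4 libraries and 11p-2 was listed only in non-target replicate 2, at 176. The last one, 20q-1, was 19020790 nt from the chromosome end, in intron 6 of RBPJL, which encodes an RBPJ-like transcription factor, and had a count of 10 in non-target replicate 1 and of 3 in VEGFA site 2 replicate 2. It was the only locus of the 42 far inside a chromosome.

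The orientation of the repeats followed the arm. The C-rich hexamer was on the plus strand at 17 of 17 near-end loci of p arms and the G-rich hexamer at 19 of 19 of q arms, so the G-rich strand ran towards the tip in each. This also held at the 5 interstitial loci of 1p and 11p, and 20q-1 was the exception. Sites with the G-rich hexamer on the plus strand were 9 of 18, 16 of 31, 8 of 18 and 9 of 24 in the 4 libraries and held 73.6%, 60.2%, 66.2% and 69.3% of the telomere-repeat count. They included 10q-2, 4q-1 and Xq/Yq-1, the 3 loci with the highest mean share in the non-target libraries.

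Set against the reference genome, the listed sites took up a larger share of the long arrays near the ends than of the others there. When exact hexamers within 30 nt of each other were joined, hg38 held 936 arrays with at least 2 tandem copies, of which 116 were within 100 kb of an end. An array was counted as reached where a 60-nt sequence took in at least 2 of its tandem copies. Here and below, arrays of X and Y were counted separately. The Xq and Yq arrays of 92 hexamers both hold the sequences of Xq/Yq-1, but only the one on Y, where these were listed, counted as reached. The 91 sequences reached 28 arrays, 25 near an end and 3 interstitial, which was 21.6% of the near-end arrays and 0.366% of the 820 interstitial ones. The break itself lay inside an array at 84 of the sites, in 22 of the near-end arrays and in all 3 interstitial ones. Near an end, the sequences reached 13 of 23 arrays with 30 or more hexamers, 7 of 37 with 10 to 29, 2 of 35 with 4 to 9 and 3 of 21 with 2 to 3. Among interstitial arrays, 2 of the 4 with 30 or more hexamers were reached, as were 1 of the 133 with 4 to 9, 0 of the 57 with 10 to 29 and 0 of the 626 with 2 to 3. These counts describe the lists and carry no test, since longer arrays offer more positions.

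No 60-nt sequence consisted of exact repeats alone. The longest tandem run within a 60-nt sequence was 2 copies at 12 sites, 3 at 24, 4 at 28, 5 at 17, 6 at 6 and 7 at 4, whereas a window wholly within exact repeats would hold at least 9. Whole exact hexamers covered 20 to 90% of the sequence, with a median of 65% and 70% in the non-target libraries and 80% and 65% in the VEGFA site 2 libraries. In hg38, 19 arrays contained over 10 exact copies in tandem, the longest 183 copies at the end of 5p, and the 60-nt sequences reached 9 of them. At 7 sites, in 5 of these arrays, the break lay inside a run of over 10 copies, with the end of that run within the 60 nt. How reads from pure repeats were placed is not given in the sources used here, and its part in this result was not tested.

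**Figure D1:**
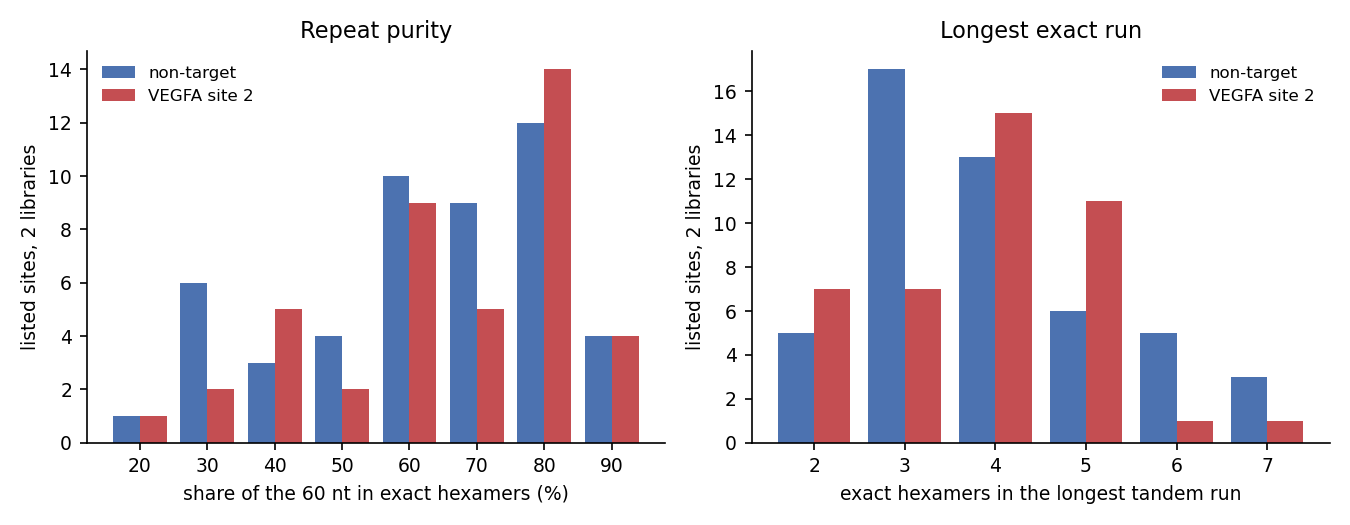
Number of listed telomere-repeat sites, summed over the 2 libraries of each group, by the percentage of the 60-nt sequence in exact hexamers (left) and by the number of exact hexamers in the longest tandem run (right). Purity ranges from 20 to 90% and no run is longer than 7 copies.

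Variant hexamers were common in the listed sequences. For 1222 of all 1223 sites, the listed sequence equalled the reference genome at its position. The variant units, the cover by exact hexamers above and the units around the break below thus describe the reference there. Whether the DNA of the cells held the same units was not tested. The share of variant units over all arrays near a chromosome end of the reference was not examined. The variant TTGGGG was found at 28 sites, TGAGGG at 27, TCAGGG at 7 and TTCGGG at 4, on the strand of the exact hexamers. At least 1 of these 4 degenerate forms, known from the inner parts of human telomeres, was present at 59 of 91 sites. Such sites were 15 of 18, 20 of 31, 9 of 18 and 15 of 24 in the 4 libraries and held 89.4%, 80.8%, 73.3% and 80.4% of the telomere-repeat count. Their median count was 34 in non-target replicate 1, below the 84 of sites without a variant unit, and was the higher one in the other 3 libraries. The 10q-2 and 4q-1 loci, the highest in the non-target libraries, both carried TGAGGG.

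The 60-nt sequence of most sites occurred once in hg38. Only exact matches were counted, which does not show how reads were placed. Over all contigs of hg38, the 60-nt sequence was found once for 67 of the 91 sites and at up to 8 places. It occurred once on the assembled chromosomes of hg38 for 82 sites, at 2 or more places for 8, and at 6 places for 1 of these, 1p-2. The others at 2 places were Xq/Yq-1 in each library, 18p-1 in non-target replicate 2 and VEGFA site 2 replicate 2, and 1p-4. The remaining site, in 10q-2 of non-target replicate 2 with a count of 1438, differed from the others in that its last 2 bases lay beyond the assembled sequence, where hg38 has no bases. It was the only listed sequence of 1223 not found at its listed position.

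Within the repeat unit, breaks were spread over the positions. At 36 sites the 12 nt around the break read as uninterrupted exact repeat. On the G-rich strand, the break then fell between the last G of a hexamer and the next T at 9 sites, between the 2 T at 5, between T and A at 7, between A and G at 7 and between adjacent G at 4 and 4. Such breaks made up 9 of 18 and 18 of 31 sites in the non-target libraries, and 4 of 18 and 5 of 24 in the VEGFA site 2 libraries. The means were 54 ± 5.7% and 21.5 ± 0.982% (SD, n = 2 each), and the exact two-sided permutation p was 0.333, the smallest the design allows. This comparison was chosen after its values were seen.

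Telomere-repeat loci recurred between libraries, and across the groups. Of the 42, 9 were listed in all 4 libraries, 3 in 3, 11 in 2 and 19 in 1. Among the 250 loci with neither an NGG match nor telomere repeats, 3 were listed in all 4 and 188 in 1. Of those 3, 1 lay at the tip of 9p, in 8 exact or variant telomere units. Among the 397 guide-matched loci, 51 were listed in all 4 and 124 in 1. Telomere-repeat loci were listed in both groups in 22 of 42 cases, only in the non-target group in 12 and only with VEGFA site 2 in 8. Of the 250 loci with neither, 12 were listed in both groups, 70 only in the non-target group and 168 only with VEGFA site 2. Loci with neither could still match the guide beside another PAM or with a bulge, which bears on this contrast. Within the non-target group, 11 of 34 telomere-repeat loci and 8 of 82 loci with neither were listed in both libraries. With VEGFA site 2 these were 11 of 30 and 54 of 180. No test was made of these shares, as loci in 1 array are not independent.

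By pairs of libraries, 11 telomere-repeat loci were shared by the 2 non-target libraries, 64.7% of the loci of replicate 1 and 39.3% of those of replicate 2. The 2 VEGFA site 2 libraries also shared 11, 61.1% and 47.8% of their loci. Pairs of libraries from different groups shared 11 to 16 loci. Over the 11 shared loci, Pearson's r of the log10 counts was 0.62 between the non-target libraries and 0.67 between the VEGFA site 2 libraries, a description over loci that share libraries and, in part, arrays. Non-target replicate 2 had the higher count at 10 of its 11 shared loci, and the highest count of all libraries at 25 of the 42.

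Within a recurrent locus, the listed position differed between libraries. Among the 23 telomere-repeat loci listed in at least 2 libraries, positions spanned a median of 8 nt and up to 42 nt, only 1 locus had a single position and 2 spanned at most 1 nt. In contrast, 52 of 62 recurrent loci with neither, and 241 of 273 guide-matched ones, spanned at most 1 nt. Of these 62, 54 were listed in both VEGFA site 2 libraries. Loci with neither could still match the guide beside another PAM or with a bulge, and positions without such loci were not examined. Non-target libraries also listed guide-matched sites, with 6.7% and 3.3% of their counts. Of their 140 guide-matched sites, 84 were at a position also listed with VEGFA site 2, against 4 of their 49 telomere-repeat sites and 8 of their 90 sites with neither.

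The highest telomere-repeat locus in both groups was 10q-2, chr10:133787362-133787394, at the tip of 10q. Its counts were 657, 2593, 790 and 851 in non-target replicates 1 and 2 and VEGFA site 2 replicates 1 and 2. It ranked 5 among all 689 loci by mean share in the non-target libraries, with 3.42 ± 1.41% (SD, n = 2) of counts without an NGG match, against 0.794 ± 0.0793% (SD, n = 2) with VEGFA site 2. The next in the non-target libraries was 4q-1, chr4:190122476-190122518, with 605, 1583, 187 and 0. It was not listed in VEGFA site 2 replicate 2, and its VEGFA site 2 replicate 1 count was below both non-target counts. The locus Xq/Yq-1, chrY:57217129-57217136, followed with 220, 1244, 276 and 528.

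At the tip of 3p, 3p-5 (chr3:10592-10606) had 65, 1066, 71 and 177. At 12p-2 (chr12:10282-10316) the counts were 2, 669, 106 and 155, and non-target replicate 1 was far below the other 3 libraries. At 18p-1 (chr18:10126-10149) they were 0, 577, 159 and 190. All of these were highest in non-target replicate 2. The locus 4p-2 (chr4:10164-10178) went the other way, with 247, 186, 65 and 9, and was highest in non-target replicate 1. The counts of 7p-1 (chr7:10112-10123), 84, 148, 54 and 104, were the most even of the 4 loci with counts over 50 in every library.

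The other loci listed in all 4 libraries had low counts. They were 20q-3 (chr20:64287039-64287043) with 14, 85, 62 and 9, 15q-1 (chr15:101981036-101981044) with 19, 48, 2 and 7, and the interstitial 11p-1. The locus 3p-2 (chr3:10188-10204) was not listed in non-target replicate 1 and had 5, 127 and 4 in the others, so that VEGFA site 2 replicate 1 alone was high. Of the remaining loci among the 10 highest in the non-target libraries, 7p-2 (chr7:10196-10196) was listed only in non-target replicate 2, at 430, 3p-1 (chr3:10063-10083) had 416 there and 34 in VEGFA site 2 replicate 2, and 5p-1 (chr5:10479-10485) had 356 and 9 in the same libraries. These 3 thus rested on 1 non-target library.

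The count test compared the groups at each of the 689 loci with edgeR's quasi-likelihood test and Benjamini-Hochberg adjustment, with the count without an NGG match as library size. With VEGFA site 2, 1 of the 42 telomere-repeat loci was lower and 0 were higher at an adjusted p under 0.05, beside 0.581% of all loci called lower and 37.4% called higher. The locus called was 10q-2, with a log2 fold change of -2.11 and an edgeR adjusted p of 0.0318. It was also the only telomere-repeat locus with an unadjusted p under 0.05. For Xq/Yq-1 the log2 fold change was -1.96 (edgeR adjusted p = 0.13) and for 3p-5 it was -3.16 (edgeR adjusted p = 0.178).

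These differences depended on the library size. With the total listed count, 6 telomere-repeat loci were called lower and 0 higher, beside 1.74% and 26.6% of all loci, and the log2 fold change of 10q-2 was -6.91 (edgeR adjusted p = 0.0309). With the stricter guide-independent count, 0 were called in either direction, none had an unadjusted p under 0.05, and the background was 0.435% lower and 48.9% higher. The log2 fold change of 10q-2 was then 1.25 (edgeR adjusted p = 0.201), so its direction turned. Leaving out 1 library leaves 1 library in a group, so only effect sizes are given for 10q-2. With the count without an NGG match as library size, its log2 fold change was -2.48 without non-target replicate 1 and -1.61 without replicate 2. It was -2.21 without VEGFA site 2 replicate 1 and -2.01 without replicate 2.

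Among the 63 loci listed in all 4 libraries, the 9 in telomere repeats had a median log2 fold change of -2.21 (range -4.15 to -1.4). By comparison, it was 9.24 over all 63 and -1.96 over the 3 with neither an NGG match nor telomere repeats. Of these 3, 1 lay at the tip of 9p. Both VEGFA site 2 shares were below both non-target shares at 7 of the 9 and above them at 0, beside 15.9% and 81.0% of the 63 loci. With the total listed count this was 9 and 0, beside 19% and 77.8%. With the stricter count it was 1 and 5, beside 1.59% and 92.1%, and the median became 1.14.

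Just inside the rule, 12 sites had exactly 2 tandem copies, with counts from 3 to 1438. Just outside it, 32 sites held a single exact hexamer and no tandem pair, and 6 of these had at least 4 exact or variant units on one strand. Of those 6, 4 were at the tip of 9p between positions 10125 and 10133, 1 in each library, with counts of 434, 1019, 826 and 339 and 8 units in each. The other 2, at 4q (position 190182210) and 2q (position 113603473), were in non-target replicate 2 with counts of 373 and 489. These values were not among those of the telomere-repeat sites. All 6 counted instead among the sites with neither an NGG match nor telomere repeats.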

How the data were processed

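TTISS-seq lists of break positions were analysed for 2 non-target and 2 VEGFA site 2 libraries of U2OS cells. The authors deposited, per library, positions with the 60-nt sequence around each and a whole-number count. No normalization is stated, so these were treated as raw counts. The processing notes name hg38. The aligner, duplicate removal, the rule for listing a position and the placement of reads in repeats are not given in the sources used here for these lists, so the listed sum is not sequencing depth, and a position not listed was entered as 0.

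The members and lists were chosen with earlier results of these data known. Sites within 30 nt were merged over libraries. The guide (20 nt) came from the study's list of guides, and a guide match required the expected cut, 3 nt from the PAM, within 30 nt. Named loci were those listed in at least 3 libraries, the 10 highest by mean share in the non-target libraries and the 5 highest in the VEGFA site 2 libraries. edgeR 4.0.16 (limma 3.58.1, R 4.3.3) gave the two-sided quasi-likelihood test, adjusted by the Benjamini-Hochberg method at 0.05, and DESeq2 1.42.0 was an alternative, as were other library sizes, filters, merging distances and copy minimums. The sequences of some loci are not reported here. Group means were compared by exact permutation of libraries. Shares have 95% Wilson intervals. Genes come from GENCODE release 44 by canonical transcript. Python 3.11.15 with pandas 2.3.3, numpy 2.4.6, scipy 1.17.1, pysam 0.24.0 and matplotlib 3.10.9 was used.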

Additional observations from a re-analysis of the deposited data

How the results depend on the processing

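The low total of the non-target lists, 2 libraries per group and an unstated limit for listing bound what can be read from these values. The count of telomere-repeat loci called with VEGFA site 2, 1 with edgeR, became 6 when library size was the total listed count, 3 with a guide match of at most 5 mismatches, 0 with the stricter guide-independent count, 0 with TMM factors (11 at an unadjusted p under 0.05), 8 with DESeq2 at the same library sizes, 32 with DESeq2's own size factors and 0 for loci with at least 4 tandem copies. It ran from 0 to 5 when 1 library was left out, and each of these calls was lower with VEGFA site 2. Over all 689 loci, 262 calls became 0 with TMM factors (114 at an unadjusted p under 0.05), 422 and 147 with DESeq2 at the same sizes and at its own, and 79 to 310 when 1 library was left out. The median log2 fold change of all loci was 9.73 with edgeR, 8.89 with DESeq2 at the same library sizes and -0.33 with DESeq2's own size factors. With the replicate block, edgeR called 41 loci and 0 in telomere repeats (0 at an unadjusted p under 0.05). In the labels, same-numbered libraries shared only their replicate number. Their deviations correlated at 0.011 over loci, which cannot settle whether they shared a batch, with 2 libraries per group. The cause of these changes was not tested.

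The difference in mean site number, -3.5, turned to 0.5 with at least 4 tandem copies and ran from -10 to 3 when 1 library was left out, turning without non-target replicate 2. The difference in share, -10.9 percentage points, turned to 10.8 with the stricter denominator and ran from -15.8 to -5.91 when 1 library was left out. Loci listed in both VEGFA site 2 libraries fell from 11 to 5 when merged within 5 nt and to 6 for sites with at least 10 counts. With at least 4 tandem copies, fewer loci met the rule, and those near an end fell from 36 to 23.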
